A study of Danio rerio with 13 samples.

Results

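Brains of male zebrafish that carried a mutant tert allele on both chromosomes (tert-/-) were set against brains of wild-type males. The tert gene encodes the reverse transcriptase subunit of telomerase. Libraries were chosen by their genotype label alone, which gave 3 tert-/- and 5 wild-type libraries among the 13 of the series, and the remaining 5 libraries were tert+/-. All fish were 3 months old, and all were labelled as the AB strain. The sources used here do not say whether a library was made from 1 brain or from several, or whether the fish came from the same clutches, so the p values measure the spread between these libraries. The mutant line is tert hu3430, in which a nonsense mutation interrupts the coding sequence in every cell of the body, and no other allele or agent is named in the labels. No group was treated. Each library is named by its genotype and a number, which only tells the libraries of a group apart. Values given by brain are values of these libraries.

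Telomerase adds repeats to chromosome ends with an RNA template that is held by its protein subunit. When telomeres become too short, p53 can be activated, and cells can stop dividing, die or enter senescence with secretion of inflammatory signals. Zebrafish without telomerase age early, which is why the study used them as a model of ageing, with retinoids and sex steroids of the brain as its main interest. The adult zebrafish brain keeps dividing radial glia in many regions, whereas its neurons do not divide.

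The tert-/- libraries held between 25429047 and 32380953 counted reads, and the wild-type libraries between 22008289 and 29347329. Reads fell on 23888 to 24197 genes in tert-/- brains and on 23816 to 24043 genes in wild-type brains. Protein genes of the mitochondrial genome took 10.2 ± 1.25% of the counts in tert-/- brains and 9.42 ± 1.28% in wild-type brains (SD, n = 3 and 5). The total, the detected genes, the mitochondrial share and the share of the 10 most abundant genes did not differ past the threshold (2-sided exact permutation tests over 56 regroupings, p between 0.196 and 0.554, adjusted p between 0.429 and 0.554). Markers of the main brain cell types were abundant throughout. The neuronal gene elavl3 lay between 277 and 422 CPM in tert-/- brains and between 356 and 391 CPM in wild-type brains, the radial glia gene gfap between 58.6 and 72.7 CPM in tert-/- and between 46.4 and 78.9 CPM in wild-type brains, and the inhibitory neuron gene gad2 between 879 and 1232 CPM in tert-/- and between 882 and 1180 CPM in wild-type brains. CPM is the usual scaling of counts to the size of the library, here with TMM factors. It does not correct for gene length, so CPM values are compared between libraries and not between genes.

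The transcript of tert was present in every library, and it was more abundant in tert-/- brains. It was counted 335, 124 and 250 times in tert-/- brains 1 to 3, against 89, 64, 55, 61 and 65 times in wild-type brains 1 to 5. This gave 10.4, 3.96 and 9.71 CPM in tert-/- brains, against 3.88, 2.24, 1.98, 2.09 and 2.54 CPM in wild-type brains. Every tert-/- value lay above every wild-type value, with tert-/- 2 above wild type 1 by a narrow margin. The log2 fold change was 1.66 ± 0.34 (SE), which edgeR did not call over all genes (adjusted p = 0.573) and DESeq2 did (adjusted p = 0.00629). Without tert-/- 1 or without tert-/- 3 DESeq2 no longer called it, with an adjusted p of up to 0.188. A nonsense mutation does not remove the transcript by itself, so this level does not measure the protein.

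Across genes, tert-/- and wild-type brains were close to each other. With the quasi-likelihood F test of edgeR, 0 of 20064 genes were called at an adjusted p under 0.05 (0%), and the lowest adjusted p was 0.110, for the amino acid transporter gene slc6a18. At an unadjusted p under 0.05 there were 429 genes (2.14%), of which 167 were higher (0.832%) and 262 lower (1.31%) in tert-/- brains. Uniform p values over the genes tested would give 1003.2. DESeq2 called 16 of the 26989 genes to which it gave an adjusted p (0.0593%), with 10 higher (0.0371%) and 6 lower (0.0222%). The fold changes were centred on 0, since 10072 genes (50.2%) were higher and 9992 lower, and the median log2 fold change was 0.00. The median size of the log2 fold change was 0.11, smaller than the median standard error of 0.20, and 5% of the genes lay under −0.58 and 5% above 0.41.

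Large differences were more often decreases, and most of them rested on genes of low expression. The tert-/- mean was over 2-fold higher in 139 genes and over 2-fold lower in 365. Past 4-fold there were 16 higher and 83 lower genes. Among the 83, 33 had no tert-/- library as much as 4-fold below the wild-type mean of log2 CPM, and 5 had all 3. Photoreceptor genes, described below, were among the large decreases. Their 47 tested members had a median of −1.87 and a lower quartile of −3.10. Their level was high in wild types 1 and 5 (0.64 and 2.098), and without both the median was −0.18. How far the excess of decreases rested on these libraries was not tested. Of the 2830 genes with a mean under 1 CPM, 285 passed 2-fold in either direction, against 198 of 6920 genes between 1 and 10 CPM, 19 of 8314 between 10 and 100 CPM and 2 of 2000 above 100 CPM. The median standard error fell with the level over these classes and was 0.46, 0.27, 0.13 and 0.11 on the log2 scale.

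**Figure D1:**
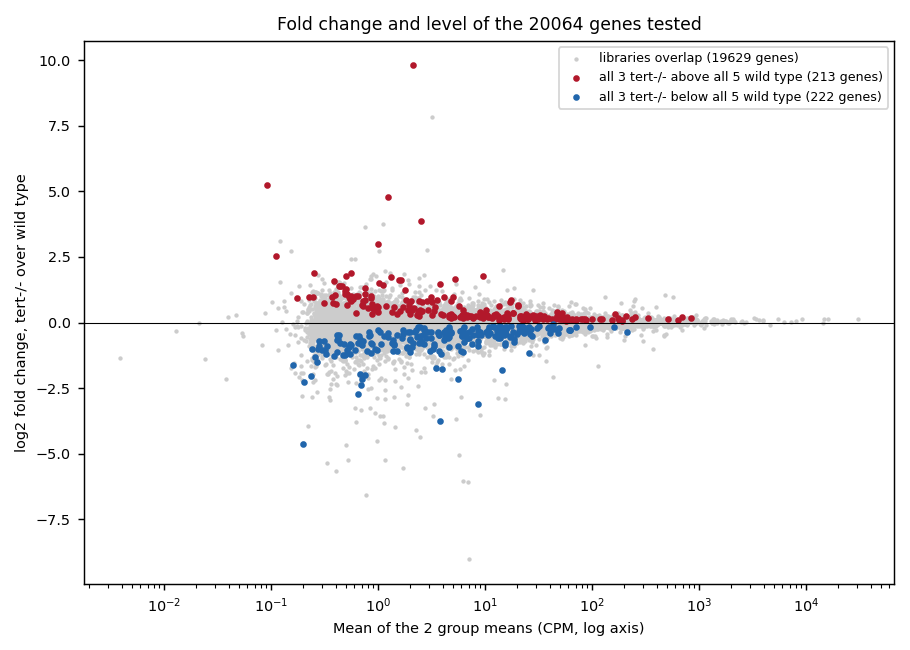
Log2 fold change of tert-/- over wild-type brains (vertical axis) against the mean of the group means in CPM (horizontal log axis) for the 20064 genes tested, 1 point per gene. Red points are the 213 genes with all 3 tert-/- libraries above all 5 wild-type libraries, blue points the 222 genes with all 3 below, and grey points all other genes, and the spread narrows as the level grows. The red point highest on the plot is si:dkey-10f21.16, which had no read in wild type, so its fitted fold is no estimate of size.

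The 3 tert-/- libraries lay outside the range of the wild-type libraries largely in different genes. In 435 genes (2.17%) the 3 tert-/- libraries lay wholly outside the 5 wild-type libraries, with 213 genes higher (1.06%) and 222 lower (1.11%). Of these, 187 also had an unadjusted p under 0.05. Some of the 56 regroupings of the libraries separate fully for any gene. A share of genes without overlap thus arises with no effect of genotype, and the 435 genes are not by themselves an excess. Taken on its own, tert-/- 1 was above every wild-type library in 4205 genes and below every one in 4240. The same counts were 4105 and 4879 in tert-/- 2, and 3562 and 3462 in tert-/- 3. As shares of the genes tested these were 21.0% and 21.1%, 20.5% and 24.3%, and 17.8% and 17.3% in tert-/- 1 to 3. Spread alone places any further library outside 5 others at times, so these counts by themselves do not measure an effect of genotype. Many of these genes stood apart in 1 tert-/- library only, namely 3029 above and 3073 below in tert-/- 1, 2573 and 2891 in tert-/- 2, and 1955 and 1445 in tert-/- 3, where they were the larger part in every case but the last. All 3 tert-/- libraries fell on the same side of the wild-type mean in 4681 genes (23.3%), and this held for 413 of the 429 genes at an unadjusted p under 0.05. The second count follows in part from choosing genes by p on the same libraries. With tert-/- 1 left out, 2618 genes did not overlap, against 1441 without tert-/- 2 and 1337 without tert-/- 3. Leaving out a library makes this count grow in every case, since fewer values have to stay apart.

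**Figure D2:**
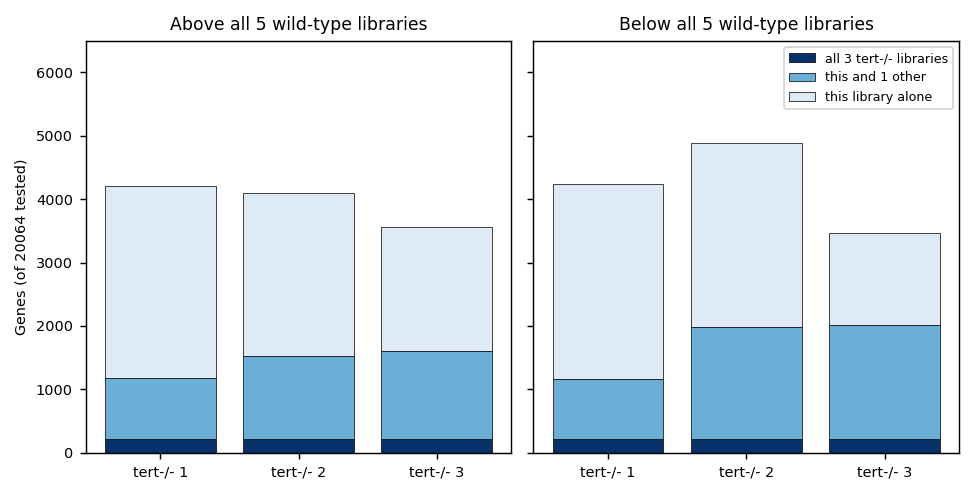
Number of genes (vertical axis) in which each tert-/- library lay above (left) or below (right) all 5 wild-type libraries. The dark part of each bar holds the genes shared by all 3 tert-/- libraries (213 above, 222 below), the middle part those shared with 1 other and the pale part those of this library alone, which is the largest part of 5 of the 6 bars.

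Among the genes called by DESeq2, 15 of 16 had tert-/- and wild-type libraries that did not overlap. This follows in part from calling them on the same libraries. Of the 16, 5 stayed called whichever tert-/- or wild-type library was left out. Of these 5, si:dkey-10f21.16, a gene known here by its clone name only, had 3.41, 4.60 and 4.62 CPM in tert-/- brains and no read in any wild-type brain. With 3 counts in all 5 wild-type libraries together taken as the floor, its tert-/- mean was 188 times the floor (DESeq2 adjusted p = 1.66e-08). The 2 tools differed widely on this gene, since edgeR gave it an unadjusted p of 0.00572 and an adjusted p of 0.999989. The transporter slc6a18 had 4.09, 0.990 and 2.02 CPM in tert-/- brains, against 0.0436, 0, 0.0720, 0.171 and 0.117 CPM in wild-type brains, and its log2 fold change was 4.78 ± 0.65. The gene btd, which encodes biotinidase, the enzyme that recovers the vitamin biotin from proteins, had 15.8, 17.7 and 15.0 CPM in tert-/- brains, against 10.1, 11.4, 11.6, 10.3 and 9.17 CPM in wild-type brains (0.62 ± 0.11). All 3 tert-/- brains stood above all wild-type brains, by a wide margin for slc6a18 and a narrower one for btd. A gene with no symbol, ENSDARG00000099438, had 5.73, 6.10 and 4.78 CPM in tert-/- brains, against 2.31, 1.96, 2.09, 1.78 and 1.795 CPM in wild-type brains (1.48 ± 0.25). The fifth, sema6ca, a membrane-bound semaphorin that guides axons, was lower, with 3.50, 3.99 and 4.08 CPM in tert-/- brains and 7.59, 8.38, 6.81, 8.33 and 9.33 CPM in wild-type brains (−1.07 ± 0.18).

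A further 7 genes were called by DESeq2 with no library left out but not after 1 or 2 of the omissions, tert among them. The inflammatory cytokine gene il1b had 4.43, 3.67 and 4.23 CPM in tert-/- brains, against 2.66, 1.58, 2.27, 1.68 and 2.19 CPM in wild-type brains (0.99 ± 0.20). Its values in the 3 tert-/- brains were close together and above all wild-type values. The gene tada1, which encodes a subunit of the SAGA histone acetyltransferase complex, had 20.4, 19.99 and 24.1 CPM in tert-/- brains and 10.9, 14.4, 10.3, 13.8 and 13.4 CPM in wild-type brains (0.77 ± 0.15). On the lower side, ears2, the glutamyl-tRNA synthetase of mitochondria, had 9.55, 13.5 and 10.6 CPM in tert-/- brains, against 23.9, 17.0, 20.1, 18.4 and 17.4 CPM in wild-type brains (−0.78 ± 0.15). The membrane metalloprotease gene adam15 had 7.25, 6.67 and 5.51 CPM in tert-/- brains and 10.4, 11.4, 11.6, 9.80 and 9.95 CPM in wild-type brains (−0.71 ± 0.14). These 4 calls were lost without tert-/- 3, with adjusted p values of 0.0998 for il1b, 0.188 for tada1 and 0.0982 for ears2 and adam15. The skeletal muscle actin acta1 (ENSDARG00000036371) had 0.589, 0.351 and 0.621 CPM in tert-/- brains and 8.55, 1.12, 4.47, 2.78 and 18.1 CPM in wild-type brains, and its call was lost without tert-/- 2 (adjusted p = 0.0619). Its reads may be shared with near-identical actins, so the level is uncertain.

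The last 4 calls depended on more libraries. The fatty acid-binding protein gene fabp10b had 22.0, 25.1 and 19.6 CPM in tert-/- brains, against 11.3, 15.5, 14.0, 9.01 and 11.6 CPM in wild-type brains, and was called in 5 of 8 omissions. The library kit does not keep the strand of the transcript, so reads shared with an overlapping gene could not be told apart. The Rab-activating gene dennd3 had 6.01, 5.78 and 4.66 CPM in tert-/- brains and 7.68, 9.68, 10.8, 9.01 and 10.7 CPM in wild-type brains, and cdc42se2, an effector of the small GTPase Cdc42, had 18.3, 11.2 and 18.2 CPM in tert-/- brains, against 33.9, 43.0, 46.4, 21.1 and 35.0 CPM in wild-type brains. Each was called in 2 of 8 omissions, though neither overlapped between the groups. The parvalbumin gene pvalb5, a calcium buffer of muscle, did overlap. It had 0.217, 0.671 and 5.32 CPM in tert-/- brains and 0.0873, 0.175, 0.180, 0.240 and 0.0390 CPM in wild-type brains, so the difference rested on tert-/- 3, and the call was lost without it (adjusted p = 1).

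**Figure D3:**
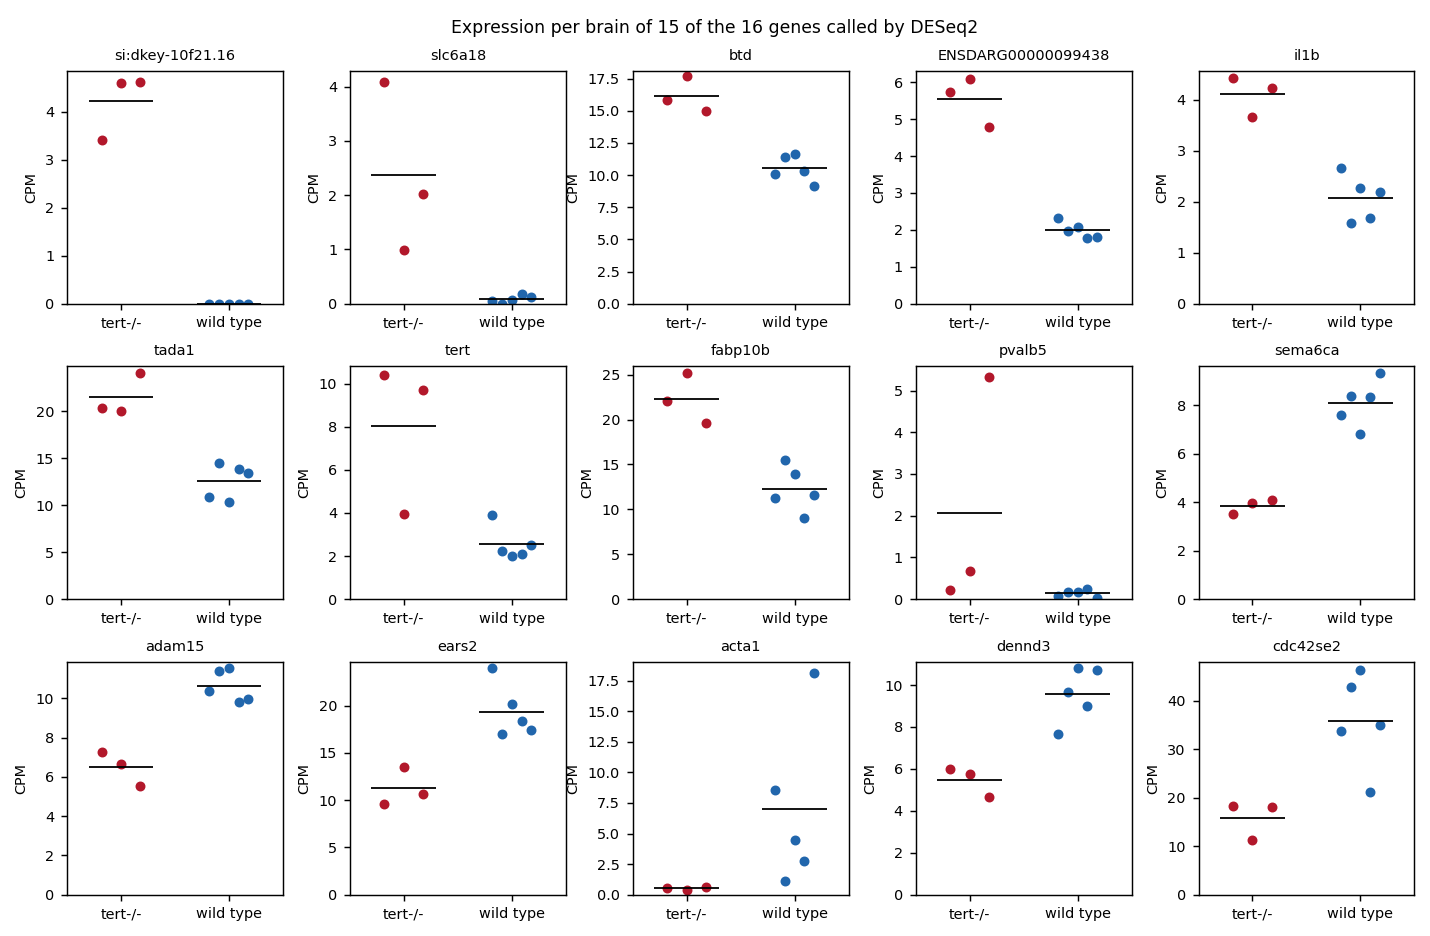
Expression in CPM (vertical axes, each starting at 0) of 15 of the 16 genes called by DESeq2, with 1 point per library, tert-/- in red on the left and wild type in blue on the right, and a line at the group mean. The first 9 panels are higher and the last 6 lower in tert-/- brains, and pvalb5 is the panel in which the groups overlap.

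Of the 24 genes with the lowest p values in either direction, 23 did not overlap between the groups. That follows in part from choosing them by p on the same libraries. Of the 24, 9 were called by neither edgeR nor DESeq2. The scaffold gene akap9, which anchors protein kinase A at the Golgi and centrosome, was the most abundant of them, with 162, 206 and 182 CPM in tert-/- brains and 240, 232, 242, 227 and 240 CPM in wild-type brains (−0.37 ± 0.09). Its wild-type values lay within a narrow band, and each tert-/- value was under it. A long non-coding RNA gene, ENSDARG00000091909, had 2.39, 0.703 and 1.75 CPM in tert-/- brains, against 4.15, 5.89, 4.39, 5.86 and 6.32 CPM in wild-type brains (−1.72 ± 0.44). Lower values in all tert-/- brains were also found for scx, the tendon transcription factor scleraxis (−0.80 ± 0.22), pax5, a transcription factor of the midbrain-hindbrain boundary (−1.06 ± 0.29), sb:cb81 (−0.61 ± 0.17) and ENSDARG00000077668 (−0.94 ± 0.26). Higher values were found for ENSDARG00000099747 (0.41 ± 0.11) and pkhd1l1 (ENSDARG00000040004), a relative of the fibrocystin gene. The expression of pkhd1l1 was 1.24, 0.990 and 11.9 CPM in tert-/- brains and 0.698, 0.140, 0.252, 0.343 and 0.195 CPM in wild-type brains, so tert-/- 3 carried most of its difference.

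Genes listed near tert in the count table were frequent among these. The order of rows was used, because positions in the genome build of the files were not used here. Of the 24 genes, 10 stood within 100 rows of tert, tert included, and so did 6 of the 16 DESeq2 calls. Within those rows 154 genes were tested, of which 23 (14.9%) had an unadjusted p under 0.05 and 20 (13.0%) did not overlap, set against 2.14% and 2.17% of all genes. The rows hold slc6a18 at 4, akap9 at 5 and sema6ca at 9 rows before tert, and ENSDARG00000099438 at 14, dennd3 at 30 and btd at 44 rows after it. Others of the 10 are not placed here and may be among the genes named above. The part of chromosomal linkage to the mutant allele in these differences was not tested.

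The largest fold changes among genes without overlap were found at low counts. On the higher side, next to si:dkey-10f21.16, slc6a18 and pkhd1l1, the inositol transporter slc5a11 had 2.73, 1.31 and 1.24 CPM in tert-/- brains and between 0.0360 and 0.393 CPM in wild-type brains. The interferon-induced gene ifit9 had 2, 3 and 10 reads in tert-/- brains and none in wild-type brains. Its tert-/- mean was 8.13 times the same floor, but tert-/- 3 held most of the reads, so the size is uncertain. On the lower side, zgc:171426 had 0.0310, 0 and 0 CPM in tert-/- brains, against 0.0351 to 0.651 CPM in wild-type brains. Its values of 0.0310 and 0.0351 CPM were both at the level of a single read, so its lack of overlap is not firm. The membrane protein gene mctp2b had 0.128 to 0.194 CPM in tert-/- brains and 0.245 to 3.75 CPM in wild-type brains, and si:dkey-248g21.1 had 0, 0.0319 and 0.660 CPM in tert-/- brains, against 0.898 to 1.61 CPM in wild-type brains.

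Functional lists of genes were then described, 51 in all, by the counts of members that were higher or lower and by the median log2 fold change. Of the 51 medians, 29 were above 0 and 22 below it. The middle 50% of all genes tested lay between −0.12 and 0.09, and 13 list medians were above that range and 9 below it. edgeR called none of the members. Only members kept by the filter on low counts were tested. A member could pass it through a few libraries with high values, tert+/- libraries included. Where many members were removed, counts of higher or lower members rest in part on which passed. The filter kept 16 of 29 matched hindbrain and spinal cord genes, 16 of 23 T cell and neutrophil genes and 7 of 14 pituitary hormone genes. When each of the 8 libraries was left out in turn, the median moved by over 1.5 times or changed sign in 48 of the 51 lists, and it changed sign in 23. In bulk tissue, fewer cells of a type and less RNA per cell cannot be told apart. As list level, the log2 CPM of each member was set against that gene's wild-type mean, and these differences were averaged within a library.

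**Figure D4:**
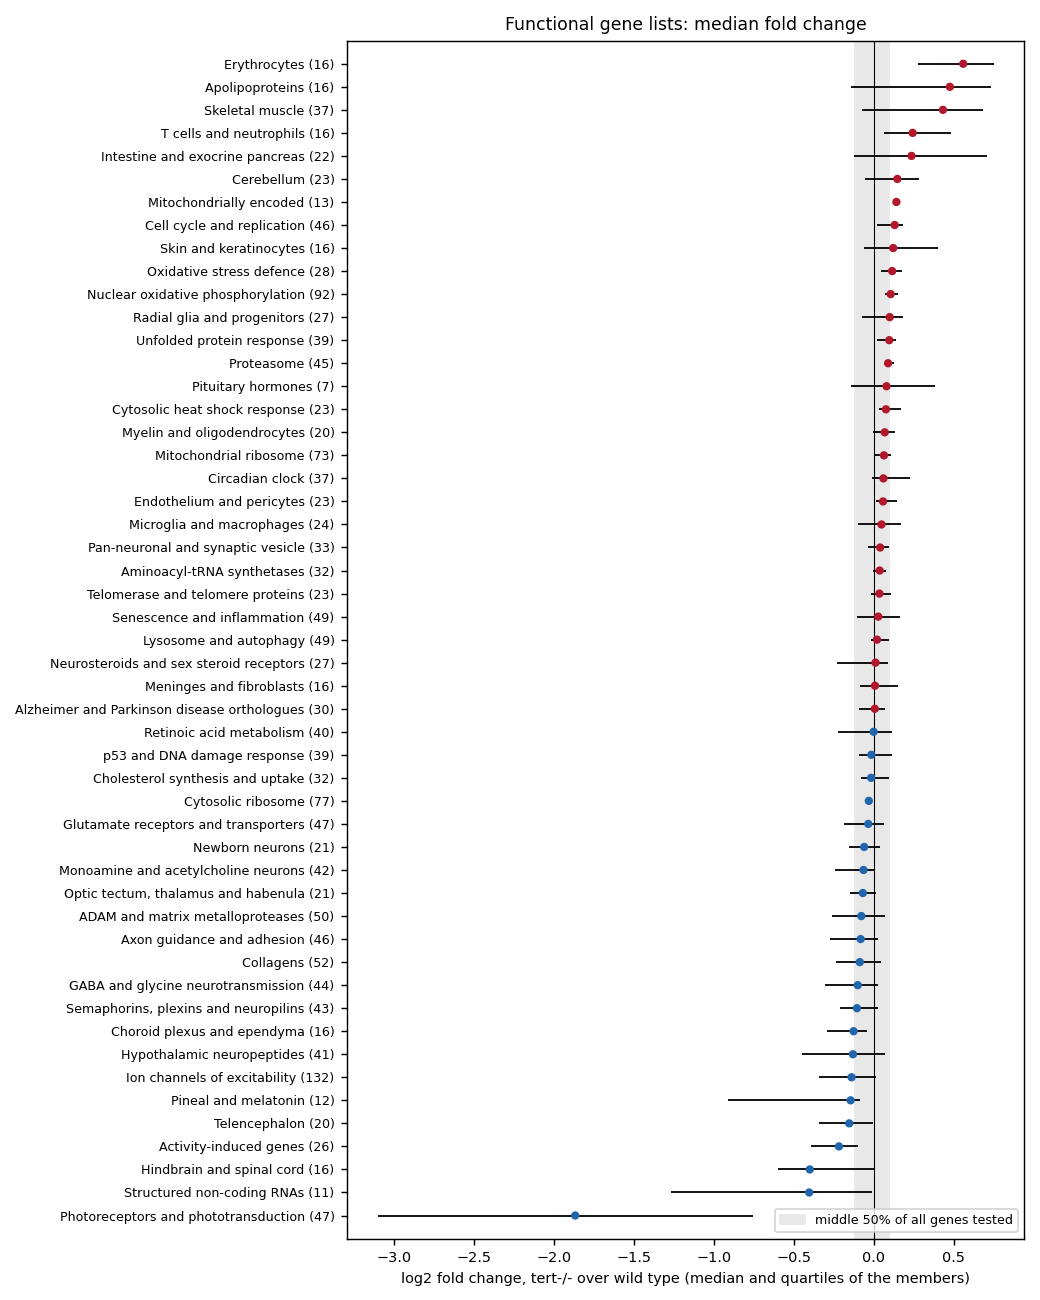
Median log2 fold change of tert-/- over wild-type brains (points) with the lower and upper quartile of the members (lines) for 51 functional lists, with the number of tested members in brackets. Red points are above 0 and blue points below, the grey band holds the middle 50% of all genes tested (−0.12 to 0.09), and the photoreceptor list, at −1.87, is the median farthest from it.

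Differences in the other genes of telomere maintenance were small. Of 23 tested members of telomerase and of the proteins bound to telomeres, tert included, 14 were higher and 9 lower, with a median of 0.03. The telomerase subunit dyskerin, dkc1, had 20.8, 21.7 and 25.8 CPM in tert-/- brains and 20.1, 17.6, 18.7, 18.5 and 21.9 CPM in wild-type brains (0.23 ± 0.13), and the groups overlapped. The telomere replication factor ctc1 had 22.4, 19.2 and 26.0 CPM in tert-/- brains, against 20.2 to 37.3 CPM in wild-type brains (−0.40 ± 0.24). Among 39 genes of the p53 and DNA damage response, 18 were higher and 21 lower (median −0.02). The p53-induced ribonucleotide reductase subunit rrm2b had 38.3, 53.3 and 50.01 CPM in tert-/- brains, against 34.8 to 38.7 CPM in wild-type brains, with tert-/- 1 inside the wild-type range. Its log2 fold change was 0.35 ± 0.13. The DNA repair kinase prkdc (−0.21 ± 0.10) and the p53 inhibitor mdm4 (−0.20 ± 0.11) lay on the other side.

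Genes of senescence and inflammation were mixed. Of 49 tested members, 28 were higher and 21 lower (median 0.03). The senescence markers were higher in 9 of 10 members, with a median of 0.07, and of 0.03 without tert-/- 3. Their level was 0.03, 0.08 and 0.003 in tert-/- brains and between −0.03 and 0.04 in wild-type brains. Hence tert-/- 1 and 3 lay inside the wild-type range. The exception among the members was glb1, which encodes the lysosomal beta-galactosidase used to stain senescent cells. It had 12.7, 12.17 and 11.5 CPM in tert-/- brains and 18.5, 16.0, 16.3, 13.3 and 14.2 CPM in wild-type brains (−0.37 ± 0.13), with no overlap. Cytokines and chemokines were higher in 7 of 12 members (median 0.08, and −0.01 without tert-/- 2), and il1b had the lowest p among them. The interferon-induced gene isg15 had 1.36, 8.81 and 0.738 CPM in tert-/- brains, against 0.480, 1.68, 0.540, 1.64 and 1.29 CPM in wild-type brains. Its difference came from tert-/- 2, while the other tert-/- brains lay within the wild-type range. The microglia and macrophage list was near 0, with 13 of 24 members higher (median 0.05, and −0.07 without tert-/- 2), and the receptor csf1rb, on which microglia depend, had 6.11, 8.88 and 5.55 CPM in tert-/- brains and 8.33 to 10.8 CPM in wild-type brains (−0.42 ± 0.18).

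Genes of energy metabolism and protein quality control were slightly higher in tert-/- brains, in most members and by a small amount. Nuclear genes of oxidative phosphorylation, which encode the respiratory chain and ATP synthase, were higher in 88 of 92 members, with a median of 0.11. In 2 of the 92 the groups did not overlap, a share close to the 2.17% of all genes tested. These were atp5f1a, the alpha subunit of ATP synthase, with 891, 881 and 888 CPM in tert-/- brains and 686, 849, 704, 836 and 876 CPM in wild-type brains, and ndufa12 of complex I, with 7.69, 8.59 and 7.49 CPM in tert-/- brains and 5.11 to 7.42 CPM in wild-type brains. Both were chosen after their values were seen. By the rule of lowest p, atp5md (0.22 ± 0.11), cox6a1 (ENSDARG00000054588) (0.69 ± 0.35) and atp5pf (0.17 ± 0.09) were named, and each overlapped between the groups. The level of the whole list was 0.13, 0.19 and 0.08 in tert-/- brains, against −0.21, 0.09, −0.08, 0.14 and 0.06 in wild-type brains. Hence tert-/- 1 and 3 lay inside the wild-type range, as they did for complex I. The level of complexes IV and V was 0.18, 0.21 and 0.12 in tert-/- brains, against −0.18, 0.07, −0.08, 0.14 and 0.05 in wild-type brains. Wild type 1 was lowest and tert-/- 2 highest, and the median of the whole list was 0.06 when either of them was left out. All 13 protein genes of the mitochondrial genome were higher (median 0.14), with the level of complexes III to V at 0.04, 0.34 and 0.06 in tert-/- brains and at −0.28, 0.15, −0.03, 0.31 and −0.15 in wild-type brains. This median moved to 0.05 without tert-/- 2 and to 0.01 without wild types 1 and 5. Proteins of the mitochondrial ribosome followed, with 58 of 73 members higher (median 0.06). The exception without overlap was mrpl58, a rescue factor for stalled mitochondrial ribosomes, with 10.4, 10.9 and 13.2 CPM in tert-/- brains and 14.1 to 15.7 CPM in wild-type brains.

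The proteasome, the complex that degrades ubiquitin-tagged proteins, was higher in 44 of 45 members (median 0.09). In 4 of the 45 members all tert-/- libraries lay above all wild-type libraries, which held for 1.06% of all genes tested. The ATPase subunit psmc2 had 90.04, 88.6 and 89.3 CPM in tert-/- brains, against 74.8, 86.3, 78.3, 83.8 and 78.9 CPM in wild-type brains (0.15 ± 0.07). The regulatory subunit psmd7 had 26.1, 30.1 and 27.6 CPM in tert-/- brains and 23.6, 23.6, 21.9, 25.5 and 23.7 CPM in wild-type brains (0.24 ± 0.10). Another regulatory subunit, psmd13, had 61.3, 62.3 and 61.3 CPM in tert-/- brains and 52.9 to 59.7 CPM in wild-type brains (0.11 ± 0.06). The fourth was the regulatory subunit psmd14. In each of the subunits with values given here the lowest tert-/- value stood just above the highest wild-type value. The list level was −0.04, 0.14 and 0.20 in tert-/- brains and between −0.07 and 0.12 in wild-type brains, and the median was 0.05 without tert-/- 3.

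Chaperones of the endoplasmic reticulum, which fold secreted proteins and are induced by the unfolded protein response, were higher in 20 of 20 members (median 0.14, and 0.09 without tert-/- 2). Their level was 0.06, 0.26 and 0.20 in tert-/- brains and −0.07, −0.04, 0.01, 0.02 and 0.08 in wild-type brains, with tert-/- 1 inside the wild-type range. The sensors and effectors of the same response were split, with 10 higher and 9 lower (median 0.01). The co-chaperone dnajb9 (ENSDARG00000016886) had 1.15, 0.862 and 1.36 CPM in tert-/- brains and 0.567, 0.456, 0.720, 0.377 and 0.820 CPM in wild-type brains (0.93 ± 0.32). The membrane protein herpud1, which takes part in the removal of misfolded proteins, had 60.2, 56.3 and 53.4 CPM in tert-/- brains and 43.9, 50.2, 50.6, 49.9 and 44.2 CPM in wild-type brains (0.25 ± 0.10). Neither of these overlapped, while calr3a, a calreticulin, did (0.24 ± 0.11). In the cytosolic heat shock list 18 of 23 members were higher (median 0.08). The level was 0.33, 0.17 and −0.37 in tert-/- brains and between −0.21 and 0.11 in wild-type brains, with tert-/- 3 below all wild-type brains and the other tert-/- brains above them. The median was 0.25 without tert-/- 3 and 0.03 without tert-/- 1. The co-chaperone dnajb1a was lower in every tert-/- brain, with 6.17, 4.95 and 3.96 CPM against 6.38 to 7.73 CPM in wild-type brains (−0.50 ± 0.19).

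Genes of the defence against oxidative stress were higher in 24 of 28 members (median 0.11, and 0.07 without tert-/- 2). The glutathione transferase gstp1.2 led them, with 168, 207 and 176 CPM in tert-/- brains and 132, 144, 137, 161 and 156 CPM in wild-type brains (0.33 ± 0.10), and the groups did not overlap. The quinone reductase nqo1 (0.34 ± 0.18) and the glutathione reductase gsr (−0.49 ± 0.26) overlapped and had opposite signs. Proteins of the cytosolic ribosome were lower in 63 of 77 members by a very small amount (median −0.03). The large-subunit level was −0.19 in tert-/- 1, and the median was 0.06 without that library. The aminoacyl-tRNA synthetases of the cytosol were higher in 15 of 17 members (median 0.04), and those of mitochondria in 8 of 15, ears2 being the member that stood apart. Genes of lysosome and autophagy (median 0.02) and orthologues of Alzheimer and Parkinson disease genes (median 0.01) were near 0. In the disease list vps35, a retromer subunit, had 199, 197 and 193 CPM in tert-/- brains and 173 to 189 CPM in wild-type brains (0.10 ± 0.06).

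Genes of neuronal excitability and wiring were more often lower in tert-/- brains. Ion channels of excitability were lower in 97 of 132 members (median −0.14), and sodium and calcium channels among them in 26 of 30 (median −0.15). The calcium channel gene cacna1ib had 6.01, 5.94 and 6.21 CPM in tert-/- brains, against 11.9, 8.34, 13.5, 8.60 and 13.9 CPM in wild-type brains (−0.89 ± 0.29). The tert-/- values were nearly the same, and the wild-type values were all above them. A related channel gene, cacna1b (ENSDARG00000079295), had 14.1, 13.6 and 13.6 CPM in tert-/- brains and 15.2 to 25.7 CPM in wild-type brains and was chosen after its values were seen (−0.54 ± 0.24). The potassium channel list level was −0.01, −0.32 and −0.22 in tert-/- brains and ranged between −0.16 and 0.19 in wild-type brains, so tert-/- 1 was inside the wild-type range. This also held for sodium and calcium channels, at −0.08, −0.44 and −0.35 in tert-/- brains and between −0.24 and 0.19 in wild-type brains. The median of all 132 channel genes was −0.07 without tert-/- 2 and −0.24 without tert-/- 1.

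Receptors of the inhibitory transmitters GABA and glycine were lower in 24 of 33 members (median −0.18), and genes of their synthesis and transport in 7 of 11 (median −0.03, and 0.11 without tert-/- 1). The receptor median was −0.11 without tert-/- 1. The receptor level was −0.114, −0.319 and −0.269 in tert-/- brains and between −0.115 and 0.187 in wild-type brains, with tert-/- 1 just inside the wild-type range. The receptor subunit gabrb4 had 5.39, 3.77 and 3.88 CPM in tert-/- brains and 7.64, 4.49, 9.76, 6.75 and 12.4 CPM in wild-type brains (−0.91 ± 0.43), with tert-/- 1 inside the wild-type range. The GABA-B receptor genes gabbr1 (−0.67 ± 0.32) and gabbr1b (−0.62 ± 0.37) overlapped as well. Glutamate receptors and transporters were lower in 28 of 47 members (median −0.04, and −0.09 without tert-/- 2). Their list level was −0.07, −0.24 and −0.06 in tert-/- brains, against −0.02, −0.02, 0.02, −0.03 and 0.05 in wild-type brains, so that the groups did not overlap. The levels of its parts each overlapped, namely AMPA receptors, NMDA receptors, kainate with delta and metabotropic receptors, and vesicular transporters. The AMPA receptor gene gria1 (ENSDARG00000032714) had 38.2, 43.9 and 42.6 CPM in tert-/- brains and 46.9, 48.4, 53.6, 46.3 and 51.9 CPM in wild-type brains (−0.25 ± 0.17). The kainate receptor gene grik3 (−0.61 ± 0.35) and the metabotropic receptor gene grm5 (ENSDARG00000102067) (−1.01 ± 0.61) overlapped. The list of neuron and synaptic vesicle genes did not share this, with 19 of 33 members higher (median 0.04).

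Semaphorins, plexins and neuropilins, the ligands and receptors that steer growing axons, formed the other list whose level did not overlap. It was −0.15, −0.23 and −0.13 in tert-/- brains and −0.03, −0.05, 0.06, −0.07 and 0.09 in wild-type brains. Some of the 56 regroupings of the libraries separate fully for any list. Among 51 lists, levels without overlap can thus arise without an effect of genotype, and whether they did so here was not tested. The receptors were lower in 12 of 14 members (median −0.15) and the semaphorins in 18 of 29 (median −0.06). The median of the whole list was −0.11, and −0.05 without tert-/- 1. After sema6ca, sema4g (ENSDARG00000076595) had the lowest p, with 3.53, 3.097 and 3.73 CPM in tert-/- brains and 4.84, 4.70, 5.44, 4.69 and 5.50 CPM in wild-type brains (−0.54 ± 0.27), without overlap. Other genes of axon guidance and adhesion were lower in 32 of 46 members (median −0.08). The netrin receptor gene unc5b had 7.22, 6.07 and 8.27 CPM in tert-/- brains and 9.69, 9.19, 9.26, 9.77 and 11.4 CPM in wild-type brains (−0.46 ± 0.21). The ephrin genes efna5b (−1.72 ± 0.65) and efna3 (−0.42 ± 0.24) overlapped. Among ADAM and matrix metalloproteases 32 of 50 members were lower (median −0.08), and among collagens 34 of 52 (median −0.09), with col14a1b at 4.18, 6.26 and 5.98 CPM in tert-/- brains and 6.94 to 9.29 CPM in wild-type brains (−0.57 ± 0.24). The gene col14a1b stands 33 rows before tert, among the rows described above. The metalloprotease median was 0.01 without tert-/- 2, and the collagen median was −0.03 without tert-/- 1 and −0.17 without tert-/- 3. That of axon guidance and adhesion was −0.02 without tert-/- 1.

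Genes of monoamine and acetylcholine neurons were lower in 30 of 42 members (median −0.06), and the sign of the median turned without tert-/- 1 (0.03). The dopamine receptor gene drd1 had 2.88, 2.33 and 2.29 CPM in tert-/- brains and 3.75, 3.68, 4.32, 3.02 and 4.098 CPM in wild-type brains (−0.59 ± 0.20), and the groups did not overlap. The muscarinic receptor gene chrm2 rested on wild type 5, with 2.19 CPM there against 0.140 to 0.324 CPM in the other wild-type brains. The serotonin transporter slc6a4 had 3.53, 7.28 and 5.44 CPM in tert-/- brains and 1.92 to 4.80 CPM in wild-type brains (0.78 ± 0.37). Genes induced by neuronal activity were lower in 21 of 26 members (median −0.22), with the transcription factor nr4a2 (ENSDARG00000017007) at −0.85 ± 0.35 and egr1 at −0.45 ± 0.34, both overlapping. This median was 0.01 without tert-/- 1 and −0.03 without wild type 1. The level of the list was −0.99, 0.06 and 0.12 in tert-/- brains and 0.65, −0.91, 0.29, 0.07 and −0.09 in wild-type brains.

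Retinoic acid metabolism, the pathway that converts vitamin A to a ligand of nuclear receptors, showed no common direction, with 20 of 40 members higher and 20 lower (median 0.00). In 1 higher and 3 lower of the 40 members the groups did not overlap, which held for 2.17% of all genes tested. Of the lower members 1 was a binding protein or receptor, and the others were enzymes. The retinol dehydrogenase gene rdh8 (ENSDARG00000028048) had 23.6, 29.0 and 22.2 CPM in tert-/- brains, against 13.4, 18.2, 16.6, 14.6 and 15.8 CPM in wild-type brains (0.67 ± 0.17). The gene cyp26c1, which encodes an enzyme that breaks down retinoic acid, had 0.868, 1.82 and 1.59 CPM in tert-/- brains and 2.36, 2.28, 2.31, 3.77 and 3.01 CPM in wild-type brains (−0.94 ± 0.37). The acyltransferase gene dgat1 (ENSDARG00000103503), which can esterify retinol besides forming triglycerides, had 54.8, 60.2 and 53.7 CPM in tert-/- brains and 61.0, 73.4, 65.2, 70.24 and 68.6 CPM in wild-type brains (−0.27 ± 0.09). The gene dgat1 stands 18 rows after tert, among the rows in which 13.0% of the genes tested did not overlap. None of these 3 enzymes overlapped between the groups, and neither edgeR nor DESeq2 called any of them (DESeq2 adjusted p = 0.326 for rdh8 and 1 for the others).

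Genes of neurosteroids and sex steroid receptors were evenly split, with 14 of 27 higher (median 0.01). The cholesterol transport protein gene tspo had 15.0, 18.5 and 9.40 CPM in tert-/- brains and 7.06 to 14.2 CPM in wild-type brains (0.48 ± 0.25). The aromatase gene cyp19a1 had 0.930, 1.05 and 0.738 CPM in tert-/- brains and 0.218 to 0.742 CPM in wild-type brains (0.66 ± 0.36), and hsd17b3, which forms testosterone, had 7.97, 15.6 and 10.1 CPM in tert-/- brains, against 11.5 to 17.0 CPM in wild-type brains (−0.35 ± 0.24). Every one of these 3 overlapped. Cholesterol synthesis and uptake was near 0 as well, with 14 of 32 members higher (median −0.02).

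Photoreceptor and phototransduction genes had the lowest median of all lists, and the highest levels were those of wild-type brains 1 and 5. Of 47 tested members, 43 were lower in tert-/- brains (median −1.87), 15 of them at an unadjusted p under 0.05 (1.31% of all genes tested) and 2 of them, gnat2 and grk7 (ENSDARG00000055534), without overlap (1.11% of all genes tested). The filter on low counts kept 47 of the 71 matched members, with 1 visual pigment gene among them. A member could pass it through a few libraries with high values, tert+/- libraries included. The counts of lower members thus rest in part on which members passed, so the shares of all genes are no yardstick for them. Without tert+/- 3 the median was −1.08. The list level was −1.01, −0.92 and −1.11 in tert-/- brains, against 0.64, −0.91, −0.80, −1.03 and 2.098 in wild-type brains 1 to 5. Wild types 2, 3 and 4 thus lay within or close to the tert-/- range, while wild type 5 and, less so, wild type 1 were high. The cone transducin gene gnat2 had 1.89, 2.24 and 1.16 CPM in tert-/- brains and 3.45, 3.40, 3.06, 2.81 and 63.9 CPM in wild-type brains. It was lower in every tert-/- brain, but most of its fold rested on wild type 5. Genes chosen after their values were seen had the same shape, such as the rod transducin gene gnat1, with 0.310, 0.192 and 0.0777 CPM in tert-/- brains and 11.8, 0.105, 0.180, 0.103 and 56.5 CPM in wild-type brains. The median of the list moved to −1.07 when wild type 1 was left out, to −0.51 when wild type 5 was left out, and to −0.18 when both were. By the rule of lowest p, cngb3.1, a subunit of the cone channel, had 0.0620, 0.160 and 0.0777 CPM in tert-/- brains and 0.960, 0.596, 0.612, 0 and 0.859 CPM in wild-type brains. Its values in wild types 2 and 3 were also above every tert-/- value, although wild type 4 had no read. Whether retina or pineal tissue was dissected with some wild-type brains was not tested. Pineal and melatonin genes had a level of −1.24, −0.21 and −0.46 in tert-/- brains and of 0.51, −0.37, −0.40, −0.48 and 0.73 in wild-type brains, with wild types 1 and 5 again the highest.

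Markers of brain regions varied widely among brains of the same genotype. The telencephalon list, which holds forebrain genes, was at −1.90, −0.30 and 0.70 in tert-/- brains and at 0.83, −0.76, 0.58, 0.04 and −0.69 in wild-type brains. The T-box gene tbr1, chosen after its values were seen, had 0.620, 8.97 and 24.6 CPM in tert-/- brains and 54.8, 4.07, 40.7, 13.1 and 4.18 CPM in wild-type brains. Hypothalamic neuropeptide genes were at −1.87, 0.28 and 0.05 in tert-/- brains, against −0.28 to 0.22 in wild-type brains. Here tert-/- 1 stood far below all other brains, and the median was −0.13 with it and 0.21 without it. The 9 reproductive peptides were all lower on average (median −0.51), and −0.04 without tert-/- 1. Gonadotropin-releasing hormone 2, gnrh2, had 2.14, 4.09 and 3.03 CPM in tert-/- brains and 4.01, 4.80, 6.19, 6.99 and 5.35 CPM in wild-type brains (−0.83 ± 0.39), and only tert-/- 2 overlapped. The feeding peptide gene cartpt (ENSDARG00000070930) had 0.992, 2.62 and 1.55 CPM in tert-/- brains and 2.14 to 5.44 CPM in wild-type brains (−0.98 ± 0.54). The peptide gene npvf, chosen after its values were seen, had 0, 17.4 and 3.65 CPM in tert-/- brains and 5.87 to 19.8 CPM in wild-type brains, and oxytocin, oxt, had 1.36, 98.3 and 239 CPM in tert-/- brains, against 4.56 to 141 CPM in wild-type brains. The gene oxt was also chosen after its values were seen.

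The cerebellum list moved the other way in tert-/- 1, with levels of 0.78, −1.24 and −0.11 in tert-/- brains and between −0.39 and 0.28 in wild-type brains. Its median was 0.15, −0.41 without tert-/- 1 and 0.53 without tert-/- 2. The granule cell transcription factor zic1, chosen after its values were seen, had 1149, 90.9 and 419 CPM in tert-/- brains and 233 to 682 CPM in wild-type brains. Hindbrain and spinal cord genes were at −1.06, −1.45 and 0.47 in tert-/- brains and at 0.62, 0.40, 0.28, −0.09 and −1.21 in wild-type brains, so wild type 5 was as low as tert-/- 1 and 2. The transcription factor lmx1b (ENSDARG00000068365) had 2.17, 5.59 and 5.40 CPM in tert-/- brains and 6.37, 5.71, 5.94, 5.45 and 7.45 CPM in wild-type brains (−0.50 ± 0.30), with tert-/- 2 inside the wild-type range. The list median was −0.40 and moved to −0.04 without tert-/- 2 and to −0.70 without tert-/- 3. The part of these regional levels in the lower counts of neuronal receptor and channel genes was not tested.

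**Figure D5:**
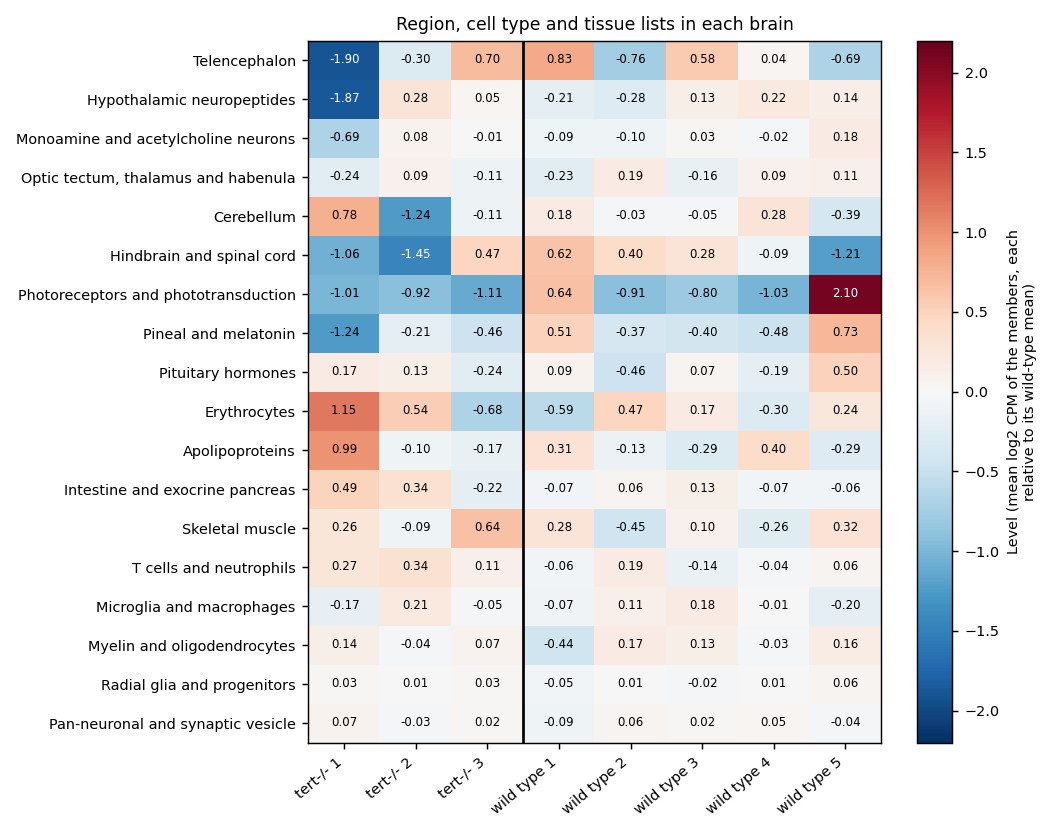
Level of 18 region, cell type and tissue lists (rows) in the 3 tert-/- brains (left of the line) and the 5 wild-type brains (right of it), as log2 CPM relative to the wild-type mean of each gene, averaged over members. Red is above and blue below the wild-type mean, and the boxes farthest from it are wild type 5 for photoreceptors (2.098) and tert-/- 1 for telencephalon (−1.90) and hypothalamic neuropeptides (−1.87).

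Lists of other tissues were higher in some tert-/- brains and not in others. Erythrocyte genes were higher in 15 of 16 members (median 0.56), at levels of 1.15, 0.54 and −0.68 in tert-/- brains, against −0.59, 0.47, 0.17, −0.30 and 0.24 in wild-type brains. The alpha globin gene hbaa1 had 543, 295 and 98.9 CPM in tert-/- brains and 108, 215, 200, 134 and 227 CPM in wild-type brains (0.82 ± 0.45). The lowest value was in tert-/- 3, and the median of the list was 0.12 without tert-/- 1. The filter on low counts kept 16 of the 23 matched erythrocyte genes, with 3 of 9 haemoglobins among them. Apolipoproteins, the carriers of lipids in plasma, were higher in 11 of 16 members (median 0.48), with levels of 0.99, −0.10 and −0.17 in tert-/- brains and −0.29 to 0.40 in wild-type brains. Without tert-/- 1 the median was −0.38. Skeletal muscle genes were higher in 25 of 37 members (median 0.43) and had levels of 0.26, −0.09 and 0.64 in tert-/- brains and of −0.45 to 0.32 in wild-type brains. The median was 0.16 without tert-/- 3. In 4 of the 37 members the groups did not overlap, against 2.17% of all genes tested, and these went both ways. The actin acta1, given above, and the fast myosin heavy chain myhz1.1 were lower, the second with 0.310, 0.287 and 0.311 CPM in tert-/- brains and 0.393, 3.89, 0.432, 0.445 and 0.859 CPM in wild-type brains (−1.98 ± 0.77), and the enolase eno3 (0.24 ± 0.11) and the slow myosin heavy chain smyhc2 (1.91 ± 0.89), both chosen after their values were seen, were higher. Intestine and exocrine pancreas genes were higher in 15 of 22 members (median 0.24), at levels of 0.49, 0.34 and −0.22 in tert-/- brains and −0.07 to 0.13 in wild-type brains. The filter on low counts kept 22 of the 33 matched members, so the count of higher members rests in part on which members passed. The median was 0.06 without tert-/- 2, 0.44 without tert-/- 3, 0.10 with voom and 0.11 with 8 libraries only. Their chymotrypsinogen gene ctrb.1 rested on 9, 11 and 1 reads in tert-/- brains and on 3 reads over all wild-type brains. T cell and neutrophil genes were higher in 13 of 16 members (median 0.24), and the part of blood left in the tissue in any of these lists was not tested.

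Differences in glia and vessels were small. Radial glia and progenitor genes were higher in 17 of 27 members (median 0.10, and 0.04 without tert-/- 2), and cell cycle and replication genes in 36 of 46 (median 0.13). The replication protein gene rpa2 had 11.7, 11.4 and 11.7 CPM in tert-/- brains and 8.38, 11.04, 10.3, 11.2 and 9.60 CPM in wild-type brains (0.19 ± 0.12), whereas the cyclin gene ccnd1 had 19.2, 26.2 and 26.3 CPM in tert-/- brains, against 25.3 to 36.1 CPM in wild-type brains (−0.36 ± 0.17). The cell cycle median was −0.05 without tert-/- 3 and 0.39 without wild types 1 and 5. Myelin and oligodendrocyte genes (14 of 20 higher, median 0.07), endothelium and pericyte genes (18 of 23 higher, median 0.06), meninges (8 of 16 higher, median 0.01) and newborn neuron genes (7 of 21 higher, median −0.06) stayed within the range of the middle 50% of all genes. Choroid plexus and ependyma genes were lower in 14 of 16 members (median −0.13). Their level was −0.64, −0.02 and 0.04 in tert-/- brains and between −0.24 and 0.12 in wild-type brains, so tert-/- 1 alone lay below wild type, and the median was −0.01 without it. The transcription factor otx2a had 1.15, 1.79 and 1.67 CPM in tert-/- brains and 2.97, 2.14, 2.67, 1.99 and 3.51 CPM in wild-type brains (−0.79 ± 0.36). The circadian clock genes were higher in 26 of 37 members (median 0.06), with the core repressor per2 at 154, 84.5 and 106 CPM in tert-/- brains and at 82.1 to 103 CPM in wild-type brains. Their median was −0.01 without tert-/- 1 and 0.16 without tert-/- 2. Optic tectum, thalamus and habenula (median −0.07, and 0.03 without tert-/- 1), skin (median 0.12, and −0.13 without tert-/- 3) and pituitary hormones (median 0.08, and −0.17 without wild type 2) had no member called by edgeR or DESeq2. Structured non-coding RNAs had 11 tested members of 847 matched, and 8 of the 11 were lower (median −0.40). The filter on low counts removed the rest, and a member could pass it through a few libraries with high values. The count thus says little about this class of RNA. The list level was −0.45, −0.68 and −0.35 in tert-/- brains and −0.54 to 0.74 in wild-type brains. The 7SK RNA rn7sk led the list, with 2.14, 1.12 and 2.02 CPM in tert-/- brains. It had 10.7, 4.63, 1.62, 2.19 and 19.7 CPM in wild-type brains, where wild types 1 and 5 were again the highest.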

How the data were processed

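Brain RNA was sequenced in 13 libraries (TruSeq RNA v2, total RNA). Per the labels, the authors processed reads with bcl2fastq 1.8.4, STAR 2.4.1d on GRCz10 and featureCounts 1.4.6-p4. The annotation release is not given in the sources used here. The deposited counts are raw counts per gene for 32105 genes. The deposited RPKM table was not used. Symbols were matched for 26269 identifiers (81.8%).

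Counts were tested with edgeR 4.0.16 in R 4.3.3 (TMM, filterByExpr with a minimum count of 10, quasi-likelihood F test, genotype over all 13 libraries), which left 20064 genes. Benjamini-Hochberg adjusted p under 0.05 made a call. SE was derived from the F statistic. Alternatives were DESeq2 1.42.0 (the tool of the study), limma 3.58.1 with voom, RLE factors, no filter, 8 libraries only, robust dispersion, the run of title numbers as covariate, and leaving out each library. List levels used log2 CPM with a prior count of 2. Where reads in wild type were absent, the floor was 3 counts, which covers counting error only. The fit was tested on simulated data before use. It called 44 of 98 genes given a 2-fold change (44.9%) and 75 of 96 given a 4-fold change (78.1%). Of 19678 unchanged genes it called 8. Many changes of 2-fold were thus missed in the simulation.

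The named genes were tert, the 12 of lowest p in each direction, DESeq2 calls, at most 3 members of lowest p per list, and the 5 largest and 5 smallest fold changes without overlap. Others are marked as chosen after their values were seen. Some genes that this rule names, 1 DESeq2 call among them, are not reported here. The comparison, the 51 lists and the alternatives were chosen with earlier results of these data known. Of 1268 list symbols, 1143 matched. Identifiers that share a symbol were kept apart.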

Additional observations from a re-analysis of the deposited data

Results flagged for a closer look

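In 2 of 85 groups of 5 wild-type libraries examined, 1 library stood apart from the others by more than Dixon's critical value of 0.710, and chance gives about 1 in 20. The level of the unfolded protein response list was highest in wild type 5, with a gap of 0.733 of the group's range. The log2 CPM of gnat2 was highest in wild type 5, at 63.9 CPM, with a gap of 0.936. The groups of 3 tert-/- libraries were too small for this check.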

How the results depend on the processing

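Counts of calls depended on the tool and on tert-/- 1. edgeR called 0 genes with RLE factors, no filter on low counts, 8 libraries only, robust dispersion or the run of title numbers, and voom with limma called 0 as well. DESeq2 called 16. Leaving out a library gave between 0 and 1 genes in edgeR, the 1 being ENSDARG00000099438 (adjusted p = 0.0451) without tert+/- 4. In DESeq2, an alternative chosen after seeing the data, it gave 89, 19 and 9 genes without tert-/- 1, 2 and 3, and 13, 15, 15, 18 and 14 genes without wild types 1 to 5. Genes at an unadjusted p under 0.05 numbered 652 without a filter, 284 without wild types 1 and 5 (also chosen after seeing the data), and between 342 and 1159 with 1 library left out, the highest without tert-/- 1. Genes without overlap numbered 449 with RLE factors, 439 without TMM factors, and between 623 and 2618 with 1 library left out. List medians changed sign in 11 of 51 lists without tert-/- 1, in 10 without wild types 1 and 5, in 6 with the run of title numbers, and in at most 5 under each other edgeR or voom setting. No paired analysis was possible because the labels give the libraries no replicate numbers shared between genotypes. The median of the photoreceptor list was −0.95 with 8 libraries only and −1.04 with voom. With 3 tert-/- libraries, a difference that was not called is not shown to be absent, above all under 1 CPM, where the median standard error was 0.46 on the log2 scale.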
